A study of Homo sapiens with 32 samples.

Results

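This account compares 2 exposures of one cell line, 1 µM against 0.1 µM perfluorooctane sulfonate (PFOS) for 12 weeks, in 8 of the 32 RNA-seq libraries of the series, 4 at each concentration. The 8 libraries were chosen by the concentration and time in their labels, and no measured value entered the choice. PFOS is a persistent fluorinated surfactant. HGrC1 is an immortalized human line with granulosa traits, kept short of luteinization, so all libraries share one genetic background. Granulosa cells line the ovarian follicle, nurse the egg and turn androgens into estradiol. The replicates are 4 frozen stocks of the line, here called vials, that differ in freezing date. For every vial there was 1 culture in the vehicle alone (0.05% DMSO) and 1 each in PFOS at 0.01 µM, at 0.1 µM and at 1 µM, with PFOS renewed at each passage in medium with 10% serum. The labels give 100 nM estradiol as the hormone in that medium, whereas the methods of the study give testosterone. The labels number the replicates without naming the vial, and each replicate number was taken as 1 vial. The 12-week libraries are then 1 for each vial and concentration. The direct contrast between the 2 upper concentrations asks which transcripts differ over a 10-fold step in PFOS, with no control library in the difference.

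Granulosa cells answer gonadotropins and growth factors through kinase cascades that switch on immediate early genes such as FOS and EGR1 within minutes, and later through genes for steroid synthesis, cytokines and matrix remodelling. They also carry the aryl hydrocarbon receptor (AHR), a ligand-activated transcription factor whose targets include the cytochromes CYP1A1 and CYP1B1 and its own feedback inhibitor TIPARP. PFOS is known as a ligand of some nuclear receptors, among them PPAR alpha. Sterol synthesis, the cell cycle and stress responses were described beside these pathways, since each has well-defined target genes.

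The 8 libraries held 18042987 to 18270674 counts each, so depth hardly differed. Levels are given as CPM, the counts of a gene relative to the library size scaled by TMM, and TPM, a level per transcript length, is given only for cell type markers. The granulosa factors GATA4 (63.8 to 76.7 TPM over the 8 libraries), WT1 (37.5 to 44.8 TPM) and GATA6 (49.9 to 64.9 TPM) were well expressed, FOXL2 was low (0.32 to 0.71 TPM) and CYP19A1, the aromatase gene, had 0 counts in all 8. Liver transcripts, which can be a sign of another cell type or of foreign RNA, summed to 60.6 to 67.2 CPM at 0.1 µM and 69.2 to 83.0 CPM at 1 µM over 18 genes. Most of that sum came from VTN (592 to 897 counts in a library) and SERPINA1 (141 to 265). All 8 of these genes that passed the filter on low counts had a higher fitted level at 1 µM (median log2 fold change 0.26). The errors were wide for ALB (log2 fold change 0.27, SE 0.73), AHSG (0.23, SE 0.91) and AFP (0.44, SE 0.78), which had at most 71 counts in a library. FGB and TTR had at most 1. The part of these transcripts in the results below was not tested. The 1 µM libraries fell into 2 pairs. On the first principal component, which held 28.5% of the variance of the 8 libraries, the 1 µM libraries of vials 1 and 2 lay at 13.6 and 12.5, those of vials 3 and 4 at −3.30 and −3.74, and the 4 libraries at 0.1 µM between −6.08 and −3.63. Hence 2 of the 4 cultures at 1 µM stood beside the 0.1 µM cultures on this axis. Values are therefore given for every library or vial, and with vials 1 and 2 or vials 3 and 4 left out where a statement rests on them.

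**Figure D1:**
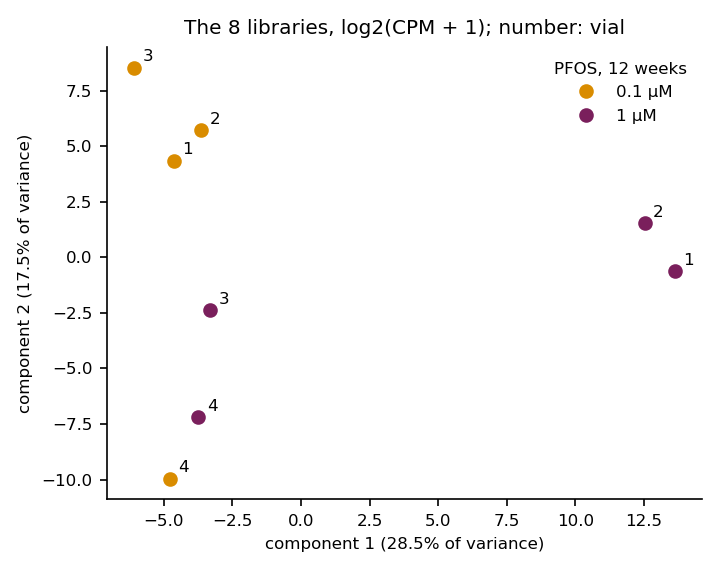
Principal components of the 8 libraries at 12 weeks on log2(CPM + 1), component 1 (28.5% of variance) across and component 2 (17.5%) up, with each point 1 library and its number the vial. The 1 µM libraries of vials 1 and 2 lie at 13.6 and 12.5 on component 1, and those of vials 3 and 4 at −3.30 and −3.74, beside the 0.1 µM libraries.

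No gene differed between the concentrations past the threshold. Of 12742 genes tested with edgeR's quasi-likelihood test on the 16 libraries of 12 weeks, 0 (0%) passed the threshold of 0.05 on p-values adjusted by the method of Benjamini and Hochberg, and 0 (0%) were DEGs, which also need a 2-fold change. The lowest adjusted p was 0.622. At an unadjusted p under 0.05 there were 984 genes (7.72% of those tested), 544 higher at 1 µM (4.27%) and 440 lower (3.45%), and 48.7% of all genes had a log2 fold change above 0 and 51.3% below. These shares are the background for the counts of gene groups below. DESeq2 on the same 16 libraries gave 0 genes, with 895 at an unadjusted p under 0.05. On the 8 libraries alone, DESeq2 gave 71 genes (56 higher and 15 lower, none past 2-fold, median size of the log2 fold change 0.26) and edgeR gave 1, CXCL2. The count therefore depended on the tool and on which libraries set the spread.

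The precision of the contrast limits what can lie within it. For 12287 genes (96.4%) the 95% interval of the fold change stayed within 2-fold either way, and for 11234 (88.2%) within 1.5-fold. The median standard error of the log2 fold change was 0.0732, and the log2 fold changes from the lower to the upper quartile lay between −0.06 and 0.07. A fitted change of 2-fold or more occurred in 19 genes, of which 9 had a mean under 10 counts. Libraries of the 2 groups did not overlap in 771 genes (6.05%), 372 higher at 1 µM (2.92%) and 399 lower (3.13%). With vials 1 and 2 left out, 0 genes passed and 409 had an unadjusted p under 0.05. With vials 3 and 4 left out, 560 genes passed (325 higher and 235 lower at 1 µM), 20 of them DEGs, and 2422 had an unadjusted p under 0.05. Those 2 fits were chosen after the pairs of 1 µM libraries had been seen and left 2 vials each, so the 560 genes describe the cultures of vials 1 and 2.

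The 20 genes of lowest p, each with a mean of at least 10 counts, were CSF1, SINHCAF, TUBA1A, RBM3, C1QTNF2, GAS2L3, NR6A1, SLC29A4, ATF7IP, FOXJ1, PARD6B, TAF8, CITED2, SLC25A29, QDPR, UBE2C, PTPN22, SAMHD1, IFT88 and RAB29. They are described as the front of a ranking in which none passed, and all 20 had an adjusted p of 0.622. Of these, 11 were higher and 9 lower at 1 µM, with log2 fold changes of 0.19 to 0.99 in size. In 19 of the 20 the groups did not overlap, PTPN22 being the exception, against 6.05% of all genes tested. For a single gene the exact permutation test of 4 against 4 libraries cannot give a p below 0.0286, the value that each of those 19 had. The genes were picked for low p in these same libraries, so neither the lack of overlap nor this permutation p is separate support.

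CSF1, the macrophage growth factor (gene ID 1435, chromosome 1, 109910506 to 109930992 on GRCh38.p14, plus strand), had the lowest p. It read 39.7, 39.1, 36.9 and 37.9 CPM at 0.1 µM in vials 1 to 4 and 50, 53.5, 42.1 and 47.3 CPM at 1 µM. Every 1 µM library lay above every 0.1 µM library, with vials 1 and 2 the highest. The log2 fold change was 0.33 (SE 0.0724, 95% interval 0.18 to 0.48, unadjusted p = 0.000167, edgeR's quasi-likelihood test). TUBA1A, which encodes an alpha-tubulin of microtubules (gene ID 7846, chromosome 12, 49184795 to 49189080), read 311, 305, 285 and 286 CPM at 0.1 µM and 382, 376, 315 and 331 CPM at 1 µM (log2 fold change 0.24, SE 0.0577, interval 0.12 to 0.36). Here too the difference was wider in vials 1 and 2. CITED2, a transcriptional co-regulator that limits the hypoxia response (gene ID 10370, chromosome 6, 139371807 to 139374648), read 200, 209, 225 and 202 CPM at 0.1 µM and 253, 235, 237 and 247 CPM at 1 µM, a narrow group in which the 4 vials were alike (log2 fold change 0.22, interval 0.10 to 0.34). FOXJ1, the master regulator of motile cilia (gene ID 2302, chromosome 17, 76136333 to 76141245), was a low transcript with 1.04, 0.665, 0.815 and 0.770 CPM at 0.1 µM and 1.59, 1.29, 1.47 and 2.2 CPM at 1 µM. The fitted difference was 0.99 on the log2 scale (interval 0.45 to 1.53), the widest in size among the 20.

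Among the genes lower at 1 µM, NR6A1, an orphan nuclear receptor known from germ cells (gene ID 2649, chromosome 9, 124517275 to 124771311), read 1.21, 0.997, 1.09 and 1.21 CPM at 0.1 µM and 0.437, 0.647, 0.709 and 0.551 CPM at 1 µM. Like FOXJ1 it was a low transcript, so few counts lay behind these values. The groups did not overlap, and the log2 fold change was −0.93 (SE 0.240, interval −1.43 to −0.43). SINHCAF, a subunit of the SIN3 histone deacetylase complex, read 36.1, 38.4, 40.4 and 36.6 CPM against 31.6, 32.5, 33.7 and 31.4 CPM, alike in all 4 vials (log2 fold change −0.23, interval −0.34 to −0.12). RBM3, an RNA-binding protein induced by cold (gene ID 5935, chromosome X, 48574484 to 48581162), read 252, 259, 263 and 247 CPM against 215, 209, 231 and 238 CPM (log2 fold change −0.19, interval −0.29 to −0.10). GAS2L3 and UBE2C, a cytoskeletal linker of dividing cells and the ubiquitin-conjugating enzyme of the anaphase-promoting complex, had log2 fold changes of −0.27 and −0.21. With DESeq2 on the 8 libraries, 10 of the 20 were among the 71 genes that passed, CSF1 (adjusted p = 0.0123), TUBA1A (0.0257), RBM3 (0.0218) and CITED2 (0.00536) among them.

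Of the other genes among the 20, C1QTNF2, a secreted protein related to adiponectin, read 7.34, 6.87, 6.52 and 7.53 CPM at 0.1 µM and 10.2, 9.70, 9.38 and 8.82 CPM at 1 µM, higher in each vial (log2 fold change 0.43). SLC29A4, a monoamine transporter of the plasma membrane, read 8.16, 7.48, 6.63 and 7.97 CPM against 11.2, 10.8, 9.28 and 10.7 CPM (log2 fold change 0.47). PTPN22, a tyrosine phosphatase best known from lymphocytes, read 1.70, 1.99, 1.41 and 1.32 CPM against 3.94, 3.99, 1.85 and 2.04 CPM, where vials 1 and 2 at 1 µM stood far above the rest (log2 fold change 0.88). Its log2 fold change was 0.51 without vials 1 and 2 and 1.1 without vials 3 and 4. The log2 fold changes were 0.34 for SLC25A29, a mitochondrial carrier of basic amino acids, 0.29 for RAB29, a small GTPase of vesicle traffic, 0.21 for QDPR, which recycles tetrahydrobiopterin, and 0.21 for SAMHD1, which breaks down deoxynucleotides. Lower at 1 µM were PARD6B of the cell polarity complex (−0.39), the general transcription factor subunit TAF8 (−0.31), IFT88 of the transport system of cilia (−0.27) and ATF7IP, a cofactor of histone methylation (−0.22).

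**Figure D2:**
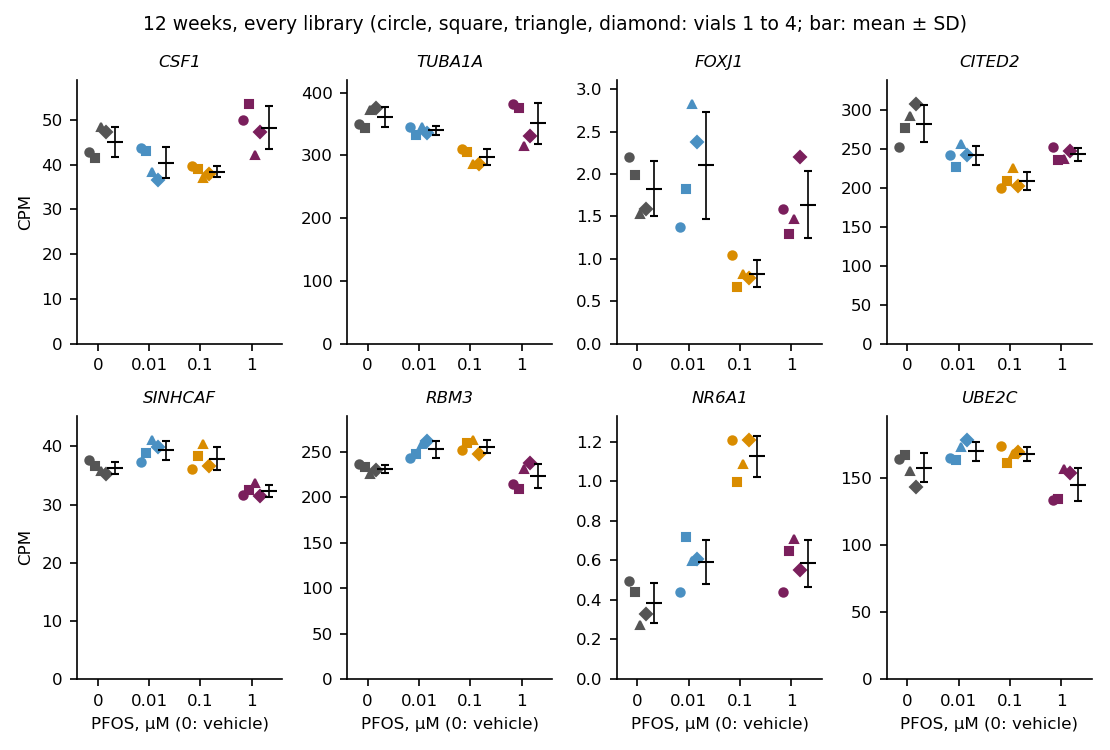
CPM (up, from 0) of 8 of the genes of lowest p in every library of 12 weeks, by PFOS concentration in µM (across, 0 being the vehicle control). Symbols stand for vials 1 to 4 and the bar for the mean ± SD of n = 4. CSF1 and TUBA1A are wider at 1 µM, where vials 1 and 2 lie highest, and for NR6A1 the 0.1 µM libraries (0.997 to 1.21 CPM) lie above the 1 µM libraries (0.437 to 0.709 CPM).

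The order of the 4 concentrations in these genes did not follow the dose. The mean at 0.1 µM was the highest or lowest of the 4 groups in 15 of the 20, and so was the mean at 1 µM, while 0 of the 20 moved in one direction from control through 0.01 and 0.1 to 1 µM. Over all genes tested, the 0.1 µM mean was an extreme in 51.4%, the 1 µM mean in 50.3% and a steady order occurred in 7.29%. Picking genes for a difference between 0.1 and 1 µM favours genes with an extreme at either, so these counts only describe the 20. FOXJ1 averaged 1.83 ± 0.323 CPM in the control, 2.10 ± 0.633 CPM at 0.01 µM, 0.823 ± 0.159 CPM at 0.1 µM and 1.64 ± 0.395 CPM at 1 µM (SD, n = 4). The 0.1 µM group stood below the other 3, which lay within their spread of each other. NR6A1 averaged 0.385 ± 0.102, 0.591 ± 0.113, 1.12 ± 0.102 and 0.586 ± 0.119 CPM in the same order, and its 0.1 µM group alone stood high. Against the control, with which both contrasts share libraries, the log2 fold change of NR6A1 was 1.53 at 0.1 µM (adjusted p = 0.00507) and 0.60 at 1 µM (adjusted p = 0.611). For FOXJ1 it was −1.14 at 0.1 µM (adjusted p = 0.0307) and −0.16 at 1 µM (adjusted p = 0.868, edgeR for all 4). NR6A1 and FOXJ1 were picked for a difference between the 0.1 and 1 µM libraries, which these contrasts use too. Their adjusted p-values against the control are therefore not separate support. CITED2 averaged 282 ± 23.8 CPM in the control, 242 ± 12.2 CPM at 0.01 µM, 209 ± 11.3 CPM at 0.1 µM and 243 ± 8.16 CPM at 1 µM. Over all genes, 136 passed against the control at 0.1 µM (1.07%) and 28 at 1 µM (0.22%).

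Immediate early genes are transcribed within minutes of a stimulus, without new protein synthesis. Of 29 measured, 5 were higher at 1 µM at an unadjusted p under 0.05 (FOSB, JUN, ATF3, ZFP36 and MYC), 1 was lower (MAFF) and the median log2 fold change was 0.04, against −0.003 over all genes. FOSB, a partner of JUN in the AP-1 factor (gene ID 2354, chromosome 19, 45467996 to 45475179), read 360, 267, 290 and 198 CPM at 0.1 µM and 402, 379, 391 and 338 CPM at 1 µM. It was higher at 1 µM within each of the 4 vials, by the most in vial 4, although the groups overlapped. Its log2 fold change was 0.44 (SE 0.184, interval 0.04 to 0.84, edgeR adjusted p = 0.629). With the vial as a replicate block it was 0.47 with an adjusted p of 0.0317, and FOSB was the 1 gene that passed in that fit. JUN read 118, 106, 121 and 107 CPM against 144, 132, 133 and 131 CPM, with no overlap (log2 fold change 0.25, interval 0.05 to 0.45). ATF3, a stress-induced repressor, read 255, 203, 210 and 194 CPM against 287, 277, 228 and 272 CPM (log2 fold change 0.30), and MYC read 270, 247, 235 and 266 CPM against 285, 297, 281 and 314 CPM (log2 fold change 0.21). Each was higher at 1 µM in all 4 vials. FOS itself read 626, 471, 566 and 429 CPM against 657, 607, 692 and 674 CPM (log2 fold change 0.33, interval −0.05 to 0.72), and EGR1 had a log2 fold change of −0.04 with an interval from −0.54 to 0.46, wide enough to hold a change of either sign. MAFF, a small MAF factor, went the other way with 122, 99.0, 103 and 95 CPM against 86.2, 93.4, 93.0 and 91.3 CPM (log2 fold change −0.21). The members thus did not share a direction, and in vial 1 the median difference of the list was −0.10, against 0.19, 0.08 and 0.25 in vials 2 to 4.

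The promoter of FOSB is shown because FOSB was the 1 gene that passed with the vial block. The bases are the 250 before its start in RefSeq, chr19:45467746-45467995 on GRCh38.p14, plus strand, with TGACG, the core of the cAMP response element bound by CREB family factors, in capitals. It was searched on both strands and its first base lies 60 bases before the start.
FOSB: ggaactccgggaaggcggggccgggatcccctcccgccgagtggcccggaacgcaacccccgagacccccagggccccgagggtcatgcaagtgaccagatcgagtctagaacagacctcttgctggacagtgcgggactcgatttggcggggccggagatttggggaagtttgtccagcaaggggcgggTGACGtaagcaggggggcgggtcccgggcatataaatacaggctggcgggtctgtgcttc
The same letters were found in 14 of the 21 immediate early genes for which a promoter was at hand and in 21.3% of all 27305 promoters of that length. A match describes the letters only.

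DUSP1, the phosphatase that ends MAP kinase signals, belongs to the feedback genes of that pathway, of which 17 were measured, with 3 higher, 1 lower and a median of 0.05. It read 1241, 938, 1011 and 1020 CPM at 0.1 µM and 1301, 1354, 1197 and 1274 CPM at 1 µM (log2 fold change 0.28, interval 0.10 to 0.47). It was higher at 1 µM in each vial, with the groups overlapping through vial 1. SPRY2, a receptor kinase antagonist, read 39.0, 32.7, 35.2 and 33.9 CPM against 29.6, 30.7, 30.6 and 32.6 CPM, so that every 1 µM library was below every 0.1 µM library (log2 fold change −0.19).

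**Figure D3:**
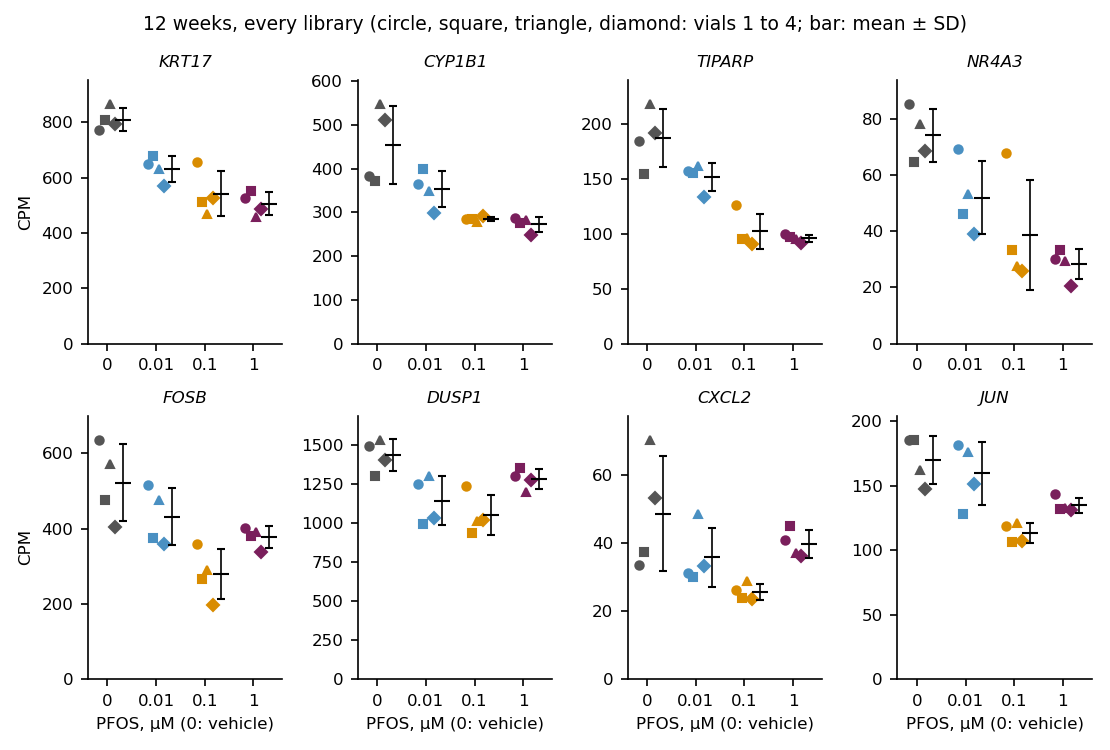
CPM (up, from 0) of 8 response genes in every library of 12 weeks, by PFOS concentration in µM (across, 0 being the vehicle control). Symbols stand for vials 1 to 4 and the bar for the mean ± SD of n = 4. KRT17, CYP1B1, TIPARP and NR4A3 overlap between 0.1 and 1 µM, while for CXCL2 the 1 µM libraries (36.0 to 44.9 CPM) lie above the 0.1 µM libraries (23.6 to 28.8 CPM).

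Chemokines and interleukins, a list of immune signals that also holds the receptor gene IL6ST, had a median log2 fold change of 0.16. Of 15 measured, 4 were higher at 1 µM at an unadjusted p under 0.05 and 0 lower. CXCL2, a neutrophil chemoattractant (gene ID 2920, chromosome 4, 74097040 to 74099195, minus strand), read 26.3, 23.8, 28.8 and 23.6 CPM at 0.1 µM and 40.9, 44.9, 37.0 and 36.0 CPM at 1 µM. The groups were far apart, a 1.55-fold ratio of the means (log2 fold change 0.63, SE 0.225, interval 0.14 to 1.12, edgeR adjusted p = 0.622). In the fit of the 8 libraries alone its adjusted p was 0.0142 with edgeR and 9.09e-09 with DESeq2. Its controls read 48.6 ± 16.8 CPM (SD, n = 4), the widest spread of the 4 groups. IL11, an interleukin of the gp130 family, read 2.74, 2.16, 1.52 and 3.13 CPM against 4.16, 4.58, 3.22 and 3.20 CPM, with no overlap (log2 fold change 0.66, interval 0.18 to 1.15). CXCL8 read 5.64, 5.43, 3.97 and 5.28 CPM against 9.62, 9, 6.00 and 5.18 CPM, where vials 1 and 2 were high and vial 4 was not (log2 fold change 0.55, interval 0.03 to 1.08). By vial, the median difference of the list was 0.32, 0.22, 0.10 and 0.02. The bases before the start of CXCL2 are shown because it alone passed in edgeR's fit of the 8 libraries. They are chr4:74099196-74099445 on GRCh38.p14, minus strand, with overlapping matches to the NF-kappaB consensus in capitals, the first of them 78 bases before the start.
CXCL2: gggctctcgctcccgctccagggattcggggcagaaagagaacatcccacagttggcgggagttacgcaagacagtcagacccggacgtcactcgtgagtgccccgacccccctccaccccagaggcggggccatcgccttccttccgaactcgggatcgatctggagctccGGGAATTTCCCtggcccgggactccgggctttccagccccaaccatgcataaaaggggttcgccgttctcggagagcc
That consensus, searched on both strands, was found in 4 of the 10 promoters at hand of the list and in 9.57% of all promoters. Feedback genes of NF-kappaB itself had a median of 0.05, with 1 of 17 higher (ICAM1, log2 fold change 0.20).

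Genes of G2 and M phase, which build and run the mitotic spindle, lay lower at 1 µM as a list. Of 34 measured, 0 had a log2 fold change above 0, against 48.7% of all genes, 7 were lower at an unadjusted p under 0.05, and the median was −0.10. UBE2C read 174, 161, 168 and 169 CPM at 0.1 µM and 134, 135, 157 and 154 CPM at 1 µM (log2 fold change −0.21, interval −0.33 to −0.09). CENPA, the centromeric histone, read 62.2, 59.2, 61.1 and 60.6 CPM against 47.6, 46.7, 58.0 and 57.3 CPM (log2 fold change −0.21), and KIF11, a spindle motor, read 192, 188, 198 and 178 CPM against 159, 168, 182 and 169 CPM (log2 fold change −0.16). In all 3 the 1 µM libraries of vials 1 and 2 were the lowest. The mitotic kinase PLK1 showed the same split, with 239, 242, 227 and 247 CPM against 180, 187, 234 and 240 CPM (log2 fold change −0.18, interval −0.37 to 0.0046). The median difference of the list was −0.20 and −0.14 in vials 1 and 2 and −0.04 and −0.07 in vials 3 and 4. With vials 1 and 2 left out it was −0.05, with 4 of 34 above 0 and 0 at an unadjusted p under 0.05. With vials 3 and 4 left out, 14 of the 34 passed, all lower, against 235 lower of all 12767 genes in that fit. That fit was chosen after the split of the vials had been seen, so its count only describes vials 1 and 2. Genes of G1 and S phase had a median of −0.03, with 0 higher and 3 lower of 34, MCM6 of the replicative helicase being the lowest in p (log2 fold change −0.20). The proportions of cells in each phase and the RNA of each cell cannot be told apart from such bulk RNA alone. The study measured the phases by flow cytometry after the same exposure time, each concentration against the control. It reports a larger G2 and M fraction at 1 µM and a smaller S fraction at 0.1 and 1 µM. Against the control, the median of the G2 and M list was −0.06 at 1 µM and 0.04 at 0.1 µM. How the measured fractions relate to these transcripts was not tested.

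The promoters of CENPA and KIF11 are shown as the G2 and M phase genes of lowest p for which one was at hand, chr2:26785806-26786055 and chr10:92592880-92593129 on GRCh38.p14, both plus strand. Capitals mark TTTGAA, the core of the cell cycle genes homology region that represses such genes outside G2 and M, on either strand, 18 and 28 bases before the start.
CENPA: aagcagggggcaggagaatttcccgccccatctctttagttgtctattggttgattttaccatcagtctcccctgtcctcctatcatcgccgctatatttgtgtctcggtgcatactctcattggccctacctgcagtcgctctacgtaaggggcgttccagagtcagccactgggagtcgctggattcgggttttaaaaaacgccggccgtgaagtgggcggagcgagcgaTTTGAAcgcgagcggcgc
KIF11: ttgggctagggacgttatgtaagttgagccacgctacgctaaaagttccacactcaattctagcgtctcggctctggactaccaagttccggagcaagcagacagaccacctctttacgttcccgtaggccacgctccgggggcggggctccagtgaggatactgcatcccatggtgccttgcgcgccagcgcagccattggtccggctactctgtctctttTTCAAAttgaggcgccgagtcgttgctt
These letters were found in 16 of the 28 promoters at hand of the list and in 13.7% of all promoters.

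Cholesterol synthesis is driven by the SREBP2 factor when cell sterol runs low. Of 24 genes measured, 23 had a log2 fold change above 0 at 1 µM and 4 were higher at an unadjusted p under 0.05, with a median of 0.11. DHCR7, the last enzyme of the pathway, read 144, 132, 133 and 135 CPM at 0.1 µM and 171, 171, 140 and 156 CPM at 1 µM (log2 fold change 0.23, interval 0.06 to 0.39). MVD read 69.5, 60.2, 61.5 and 62.8 CPM against 77.1, 82.9, 65.4 and 72.4 CPM (log2 fold change 0.23). By vial the median was 0.19, 0.24, −0.02 and 0.11, so vials 1 and 2 held the higher values again. With vials 1 and 2 left out, 17 of 24 lay above 0 with a median of 0.03. With vials 3 and 4 left out 11 of 24 passed, all higher, against 325 higher of all 12767 genes in that fit. The latter count only describes vials 1 and 2. Fatty acid synthesis, with 3 of 14 higher (ACSS2, FASN and ACLY) and a median of 0.10, had medians of 0.10 and 0.21 in vials 1 and 2 and −0.03 and 0.06 in vials 3 and 4. PPAR targets and fatty acid oxidation had 0 of 24 at an unadjusted p under 0.05 and a median of 0.04. Genes of cholesterol efflux and uptake had 2 of 14 higher, LRP1 and SCARB1.

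Of 16 matrix proteases and inhibitors, 7 were higher at 1 µM and 1 was lower (ADAMTS5), with a median of 0.13. MMP15, a membrane-bound metalloproteinase, read 79.2, 69.0, 74.7 and 85.7 CPM at 0.1 µM and 111, 109, 86.3 and 97.8 CPM at 1 µM (log2 fold change 0.39, interval 0.08 to 0.70). TIMP2, an inhibitor of these enzymes, read 366, 370, 372 and 380 CPM against 431, 414, 401 and 408 CPM (log2 fold change 0.15), and ADAMTS1, a protease of ovulation, read 275, 263, 270 and 262 CPM against 298, 295, 292 and 287 CPM (log2 fold change 0.13). All 4 vials were above the 0.1 µM libraries in these 3 genes, by small amounts in the last. The list's median by vial was 0.13, 0.14, 0.02 and 0.16. Of 18 collagens, 4 were higher and 0 lower, with a median of 0.10. COL1A1, of type I collagen, read 2139, 2072, 1932 and 1930 CPM against 2651, 2580, 2149 and 2295 CPM (log2 fold change 0.26), and COL8A1 read 5.75, 6.48, 5.16 and 6.05 CPM against 15.7, 12.2, 7.58 and 6.94 CPM (log2 fold change 0.85, interval 0.31 to 1.40). Both had their highest levels in vials 1 and 2. Of 27 ligands and response genes of activin, BMP and TGF-beta, 4 were higher, TGFB1, TGFBI and BAMBI among them, 0 lower and 23 above 0. Of 17 thrombin receptors and genes of fibrinolysis, 4 were higher and 0 lower, with a median of 0.09. Among them were SERPINE2, a protease inhibitor (log2 fold change 0.51), PLAUR, the urokinase receptor (0.22), and THBD, thrombomodulin (0.77). By vial the median of these 17 genes was 0.12, 0.21, 0.02 and 0.05. With vials 1 and 2 left out it was 0.02, with 1 higher and 1 lower at an unadjusted p under 0.05. With vials 3 and 4 left out 5 of 17 passed, all higher, against 325 higher of all 12767 genes in that fit. The latter count only describes vials 1 and 2.

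Metallothioneins, small proteins that bind zinc and copper, had the lowest median of the lists, −0.31, with 0 of 6 above 0 and 1 lower at an unadjusted p under 0.05. That gene was MT1F, with 10.2, 8.97, 10.7 and 9.57 CPM at 0.1 µM and 4.76, 5.66, 8.73 and 7.82 CPM at 1 µM (log2 fold change −0.55, interval −0.97 to −0.13). MT2A read 208, 205, 216 and 188 CPM against 162, 177, 200 and 193 CPM. The vial medians were −0.38 and −0.34 in vials 1 and 2 and −0.10 and 0.06 in vials 3 and 4. Members of this family are close copies, so reads may have been split among them. Mitochondrially encoded genes had a median of −0.16 with 0 of 9 above 0, but here vial 1 was at 0.18 and vials 2, 3 and 4 at −0.16, −0.33 and −0.32. Of 77 cytosolic ribosomal protein genes, 6 lay above 0, 0 passed an unadjusted p of 0.05 and the median was −0.05.

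Steroid synthesis is the main endocrine task of granulosa cells. Of 24 genes measured, 19 had a log2 fold change above 0. At an unadjusted p under 0.05, 3 were higher at 1 µM, CYP11A1, STS and DHCR7, the last also counted under cholesterol synthesis. At that p 0 were lower, and the median of the list was 0.08. By vial the median was 0.10, 0.19, 0.02 and 0.02. With vials 3 and 4 left out, 9 of 24 were higher at an unadjusted p under 0.05 and 3 passed, with a median of 0.16. Over all 12767 genes in that fit, 1278 were higher at an unadjusted p under 0.05 and 325 passed as higher. These counts only describe vials 1 and 2. With vials 1 and 2 left out 1 of 23 was higher, with a median of 0.05. CYP11A1, the enzyme that opens steroid synthesis from cholesterol, was barely expressed, with 0.219, 0.277, 0.109 and 0.110 CPM at 0.1 µM and 0.766, 0.701, 0.218 and 0.386 CPM at 1 µM, at most 14 counts in a library. Vials 1 and 2 at 1 µM were the highest, and the log2 fold change of 1.5 had an interval from 0.43 to 2.58. STAR, which carries cholesterol into mitochondria, read 1.70, 1.55, 2.61 and 0.880 CPM against 2.90, 2.43, 1.25 and 1.65 CPM, with much overlap (log2 fold change 0.29, interval −0.28 to 0.86). HSD17B1, which makes estradiol from estrone, had a log2 fold change of 0.08 with an interval from −0.28 to 0.44. Of 14 granulosa markers, 0 had an unadjusted p under 0.05. AMH, anti-Müllerian hormone, read 16.9, 16.1, 15.4 and 16.1 CPM against 14.2, 14.3, 17.4 and 16.1 CPM, and GATA4 had an interval from −0.18 to 0.08. INHBA, the activin subunit, read 8.27, 11.5, 10.5 and 12.4 CPM against 21.5, 17.6, 10.7 and 11 CPM, again high in vials 1 and 2 only (log2 fold change 0.51, interval −0.08 to 1.1).

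The study names F2RL3 and CYP1A1 at 12 weeks from comparisons with the control, and the others below from a trend over the concentrations. These libraries thus took part in the choice, and between the 2 upper concentrations none passed. KRT17, a keratin of stressed epithelium, read 658, 513, 467 and 528 CPM at 0.1 µM and 524, 551, 458 and 487 CPM at 1 µM (log2 fold change −0.10, interval −0.28 to 0.08). CYP1B1 read 284, 284, 278 and 290 CPM against 287, 275, 282 and 248 CPM (log2 fold change −0.06, interval −0.30 to 0.17). TIPARP read 126, 95.2, 95.8 and 90.6 CPM against 99.3, 97.2, 95.2 and 91.5 CPM (log2 fold change −0.09, interval −0.31 to 0.13). Against the control, the fitted changes of KRT17 were −0.58 at 0.1 µM and −0.68 at 1 µM. They were −0.67 and −0.73 for CYP1B1, and −0.88 and −0.97 for TIPARP. Those contrasts share the control libraries with each other and the 0.1 and 1 µM libraries with the intervals given here. The values therefore stand side by side only. F2RL3, the thrombin receptor PAR4, read 1.97, 1.11, 1.30 and 0.770 CPM against 1.31, 1.51, 1.75 and 1.71 CPM (interval −0.28 to 0.84), and NR4A3, an orphan receptor of the ovulatory response, read 67.8, 33.2, 27.6 and 26.0 CPM against 30.2, 33.2, 29.2 and 20.6 CPM (interval −1.1 to 0.20), where 1 library, vial 1 at 0.1 µM, was apart. CYP1A1 gave 2, 6, 4 and 2 counts against 4, 4, 3 and 5 counts, too few for a comparison. TTPA, ASPG, LOC124907854, KLHL3 and SFRP1 had log2 fold changes of 0.40, −0.37, 0.32, 0.22 and 0.09, each with an interval that held 0. Of 13 AHR targets in all, 2 were higher, NQO1 (log2 fold change 0.14) and ALDH1A3 (0.54), 0 were lower and the median was 0.18. Within vials, on log2(CPM + 1), it was 0.20, 0.03, 0.04 and 0.01.

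The same contrast was made in the same vial lineages after 6 weeks, from libraries that the 12-week contrast does not share. At 6 weeks 11 of 12836 genes passed (0.0857%) and 802 had an unadjusted p under 0.05 (6.25%). The difference between the 2 times was tested as an interaction over all 32 libraries, and 0 of 12988 genes (0%) passed, with 946 at an unadjusted p under 0.05 (7.28%, edgeR). With DESeq2 this test was not run. Across the 12645 genes tested at both times, the 2 sets of log2 fold changes had a Pearson r of 0.0398 and a Spearman rho of 0.0271, and r was 0.0014 over the 6269 genes with a mean log2 CPM of at least 5. These are descriptions across genes, which are not independent. Of the genes of lowest p at 12 weeks, CSF1 had a log2 fold change of −0.06 at 6 weeks (interaction 0.39, adjusted p = 0.259), RBM3 one of 0.08 (interaction −0.28, adjusted p = 0.262) and CITED2 one of 0.12 (interaction 0.10, adjusted p = 0.799). FOSB stood at −0.11 and DUSP1 at −0.16 at 6 weeks, against 0.44 and 0.28 at 12 weeks. NR4A3 was higher at 1 µM at 6 weeks, 16.8 against 35.4 CPM in the means (log2 fold change 1.08, adjusted p = 0.0509), and lower at 12 weeks (interaction −1.52, adjusted p = 0.269). None of these differences between times passed. TUFT1, a gene first known from tooth enamel, and IRF1, an interferon-induced factor, are named after their values were seen. TUFT1 averaged 93.0 and 114 CPM at 0.1 and 1 µM after 6 weeks and 110 and 104 CPM after 12 weeks. Its interaction of −0.37 had an adjusted p of 0.0778 over all 32 libraries and passed when the fit held the 16 libraries of these concentrations alone. IRF1, with an interaction of −0.26 (adjusted p = 0.676), passed when vial 4 was left out.

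In each of the other lists, at most 3 members were higher and at most 3 lower at an unadjusted p under 0.05. RGS and phosphodiesterase genes had 2 of 21 higher and 2 lower (median 0.04), eicosanoid genes 2 of 18 higher (PTGER2 and PTGDS, median 0.08), EGF-like ligands and their receptors 2 of 8 higher (NRG4 and ERBB3), WNT genes 1 of 21 higher (DKK3, median −0.01) and keratins and junction genes 3 of 21 higher and 1 lower. CDK inhibitors and p53 targets had 3 of 26 higher and 2 lower. CDKN1A, the p21 inhibitor, read 153, 141, 147 and 123 CPM against 191, 201, 146 and 150 CPM, again high in vials 1 and 2 (log2 fold change 0.28, interval 0.04 to 0.53). Apoptosis regulators had 1 of 23 higher, unfolded protein and integrated stress genes 1 of 25 higher and 3 lower, heat shock chaperones 2 of 17 higher, NRF2 targets 3 of 22 higher and glycolysis and hypoxia genes 3 of 29 higher. HMOX1, heme oxygenase 1 and an NRF2 target, read 17.3, 15.3, 19.0 and 16.3 CPM against 21, 21.2, 18 and 19.4 CPM (log2 fold change 0.23). Interferon-stimulated genes had 2 of 23 higher (IFIT2 and IFI27), nuclear receptors 1 of 30 higher and 3 lower, proteins of the AHR pathway 1 of 8 higher (SRC), and families of near-identical copies, whose reads may be split among members, 0 of 34 higher and 2 lower. Markers of other cells than liver gave 1 member each for the theca and oocyte lists (CYP11A1 and ZP3) and 0 for the hematopoietic and endothelial lists. Within these lists, CD3E, BMP15, DDX4 and DAZL had 0 counts in all 8 libraries and CYP17A1 at most 1. Other members were expressed, so the lists were not empty. Over the 8 libraries, CD68 had 254 to 377 counts, CD14 33 to 76, NR2F2 3057 to 3660 and ACTA2 195 to 318. ZP3 had 374 to 484 counts, KDR 62 to 113 and TEK 41 to 67. The replication-dependent histones, whose share moves with the capture of poly(A), summed to 32.7 to 40.3 CPM at 0.1 µM and 28.4 to 37.2 CPM at 1 µM, with 1 of 7 lower and a median of 0.02. Their median by vial was −0.41, 0.12, −0.05 and 0.24. In the fits without vials 1 and 2 or without vials 3 and 4, which each tested 8 histone genes, it was 0.04 and −0.29. In the latter 1 gene passed, lower, against 235 lower of all 12767 genes. Their part in the other results was not tested.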

How the data were processed

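RNA was sequenced from 32 cultures of HGrC1 cells (stranded poly(A) libraries, DNBSEQ). Per the labels and the study's methods, the authors aligned reads with HISAT2 (2.0.4) and Bowtie2 (2.2.5) to GRCh38.p14 and deposited RSEM (1.2.8) expected counts and TPM, the latter scaled by transcript length and library. Of 47137 rows, 18583 held values. The authors' own comparison columns were not used. Expected counts were rounded, filtered with filterByExpr and scaled by TMM over the 16 libraries of 12 weeks, and the quasi-likelihood test of edgeR (4.0.16, R 4.3.3) gave 1 µM minus 0.1 µM, with Benjamini-Hochberg adjustment over 12742 genes. A gene passed at an adjusted p at or under 0.05, and a DEG also changed at least 2-fold. Intervals are 95% intervals of the fit. Differences within a vial are on log2(CPM + 1). The interaction with time was fitted over 32 libraries. DESeq2 (1.42.0), other scalings, filters and sets of libraries and the vial block were alternatives. The procedure was tested on simulated data.

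The 8 libraries were compared by their labels. The named genes were the 20 of lowest p with a mean of at least 10 counts, the genes that the study names at 12 weeks, and up to 3 members of lowest p in each gene list. Further list members were named, after their values were seen, where a count held them or for a defining role. The genes and lists were chosen with earlier results of these data known. Families of close copies and antisense pairs may share reads. No pair of replicates held identical values: over 12 pairs the chi-square per degree of freedom was 2.73 to 9.32. Per the study's methods the cells of each vial were divided among the groups, so the design pairs the samples by vial. The replicate number was taken as the vial, and the differences within vials rest on that reading. Over 12742 genes the deviations of same-numbered libraries from their group means correlated at 0.0015, 0.11, 0.09 and 0.088 for vials 1 to 4. The vials are freezings of 1 line, so p-values measure the spread between cultures of that line. Promoter sequences are from RefSeq on GRCh38.p14. The values of some list members are not reported here.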

Additional observations from a re-analysis of the deposited data

Results flagged for a closer look

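Of 70 groups of 4 libraries examined, 2 held 1 library whose gap to the other 3 was wide for the range of the 4. Chance gives such a gap in about 1 of 20 groups, so 2 of 70 is no larger a share than that. TIPARP read 126 CPM in vial 1 at 0.1 µM, against 90.6 to 95.8 CPM in the other vials. QDPR, a pterin reductase, read 36.1 CPM in vial 3 at 0.1 µM, against 38.2 to 38.5 CPM in the others.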

How the results depend on the processing

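The count of genes that passed was 0 in the fit of 16 libraries and stayed 0 with other scalings, other filters, all 32 libraries, DESeq2 on 16 libraries and each vial or library left out. It was 1 with the 8 libraries alone (CXCL2), 1 with the vial as a replicate block (FOSB), 71 with DESeq2 on 8 libraries, and 560, with 20 DEGs, without vials 3 and 4. The count at an unadjusted p under 0.05, 984, was 1487 with the 8 libraries alone, 1516 with all 32, 409 without vials 1 and 2 and 2422 without vials 3 and 4. Leaving out 1 vial or library gave 390 to 1293, with 566 and 390 without vials 1 and 2 in turn and 584 and 585 without their 1 µM libraries alone. The interaction with time gave 1 gene in the fit of the 0.1 and 1 µM groups, and 0 to 1 with a vial left out. The fits without pairs of vials were added after the data were seen. The cause of these differences was not tested.

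For lists of at least 3 genes, over the genes of the 16-library fit, these medians moved by more than the spread between vials. Without vials 1 and 2 the median was 0.026 for AHR targets, −0.042 for RGS and phosphodiesterases, 0.0041 for G1 and S phase, −0.035 for metallothioneins, 0.016 for interferon-stimulated genes, 0.037 for nuclear receptors and −0.37 for hematopoietic markers. Without vials 3 and 4 it was −0.028 for granulosa markers, 0.14 for collagens, −0.52 for metallothioneins, 0.021 for glycolysis and 0.11 for interferon-stimulated genes. Leaving out 1 vial gave −0.0091 to 0.043 for granulosa markers, 0.037 to 0.31 for AHR targets, 0.038 to 0.099 for MAP kinase feedback, 0.047 to 0.15 for eicosanoid genes, 0.012 to 0.095 for RGS and phosphodiesterases, 0.029 to 0.17 for EGF-like ligands, −0.0098 to 0.036 for keratins, 0.036 to 0.065 for glycolysis, 0.032 to 0.10 for interferon-stimulated genes and −0.038 to 0.017 for nuclear receptors.

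Of 35 genes followed through all alternatives, the 20 of lowest p kept their direction in each. The log2 fold change turned for F2RL3 (−0.12) and IRF1 (−0.18) without vials 3 and 4, and for KLHL3 (−0.090) and TIPARP (0.0015) without vials 1 and 2. With 1 vial or library left out it ran from −0.13 to 0.57 for CYP1A1, −0.14 to 0.30 for SFRP1, −0.17 to 0.013 for KRT17, −0.14 to 0.034 for TIPARP and −0.17 to 0.13 for IRF1. Depth limits the genes of a few counts, CYP1A1 and CYP11A1 above all.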
